A study of Mus musculus with 15 samples.

Results

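Septic hearts of the study's Max Dep group, 3 wild-type arrays, were set against the 3 wild-type sham arrays, which together are 6 of the 15 arrays of the series. The arrays were chosen by their titles alone. All 20380 probe sets that the platform annotation pairs with a single gene were used, and they gave 12393 genes. All 6 mice were C57/BL6 wild type. Max Dep mice had caecal ligation and perforation, an operation that ties off and punctures the caecum so that gut bacteria seed the abdomen. Sham mice had the abdomen opened and the caecum lifted out and put back. Both groups were given buprenorphine, an opioid, and repeated subcutaneous saline. At 48 h both were anaesthetised with ketamine and xylazine, a catheter was passed through a carotid artery to record contractility, and the whole heart was frozen. The label Max Dep is not spelled out, the series title speaks of depressed myocardial function in sepsis, and the labels give no age, sex or contractility value. The 3 wild-type CLP arrays titled Min Dep entered the fit only through their spread, and as a second reference where named.

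Septic cardiomyopathy is a reversible loss of contractile function. In textbook accounts, bacterial products and cytokines act on cardiomyocytes, white cells enter the myocardium, and the heart, which normally burns fatty acids, lowers its oxidative metabolism. Monocytes, macrophages and neutrophils recognise bacteria and antibody through receptors that signal through small shared adaptor proteins. Cells that make much secreted or membrane protein, inflamed cells among them, call on the chaperones of the endoplasmic reticulum (ER), whose genes are controlled by the unfolded protein response.

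Values were deposited as a standardised score, in which each probe set has been scaled to the same spread over the 9 wild-type arrays. A difference is therefore relative to that spread, to which the Min Dep arrays also contribute, and carries neither a level nor a fold. At a spread of 1 over the 9 arrays, 3 arrays can differ from 3 others by at most 2.31 units. Values somewhat above this arise because each array was scaled again as a whole. In whole-heart RNA, fewer cells of a type and less RNA per cell cannot be told apart, and with no levels it cannot be read from these values whether a marker is absent. The arrays bore only a weak common pattern. Over all genes, sham arrays correlated with one another at 0.12 to 0.24, and Max Dep arrays with one another at 0.01 to 0.10. Sham replicate 1 stood apart in sex-linked genes. Its Xist score was 2.64 against at most -0.17 in the other 8 wild-type arrays, Uty was -2.64 and Eif2s3y -2.48; Xist and Uty were named after their values were seen. The mean 5' minus 3' score of the Gapdh and Actb control probe sets, a measure that falls as RNA degrades, was 0.55, 0.39 and 1.76 in sham and -0.81, 0.53 and -1.85 in Max Dep hearts. The groups overlapped through Max Dep replicate 2, and the part of this measure in the differences below was tested only by the fit that includes it.

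In Max Dep hearts 36 genes rose and 20 fell past an adjusted p of 0.05 (limma, unmoderated statistics, Benjamini-Hochberg over 12393 genes), which is 0.29% and 0.161% of the genes tested. In all 56, every Max Dep array lay on one side of every sham array. Such separation was common without a call: 13.8% of all genes had the 3 Max Dep arrays above the 3 sham arrays, and 12.7% had them below. The median difference over all genes was -0.09, and the median absolute difference 0.75. Of all 12393 genes, 5801 (46.8%) had a positive difference and 6592 a negative one. Adjusted p-values of the 56 genes ran from 0.0209 to 0.0494 and absolute differences from 1.36 to 2.49. Among the rises were adaptors and receptors of myeloid cells, ribosomal proteins, and proteins of the ER. The falls included 2 regulators of glycogen, 2 inner-membrane proteins of mitochondria, Z-disc and filament proteins of muscle, and the laminin chain Lamb1.

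The calls depended on the fit and on single arrays. With only the 6 sham and Max Dep arrays fitted, 7 genes passed as higher and 0 as lower, so none of the 20 falls held. With limma's eBayes moderation 0 genes passed, where 2071 had an unadjusted p under 0.05 without it. With sham replicate 1, sham replicate 2, Max Dep replicate 1, Max Dep replicate 3 or Min Dep replicate 1 left out, 0 genes passed. Without sham replicate 3 the count was 6, without Max Dep replicate 2 it was 3, and without Min Dep replicate 2 or 3 it was 26 or 10. With the 5' minus 3' measure as a covariate 0 genes passed. In no left-out fit did the unadjusted p of a called gene exceed 0.00139. The called genes had been picked for small p on arrays that each left-out fit mostly reuses. Small p-values there are therefore no independent support for the calls. Testing each probe set on its own gave 121 higher (0.594%) and 99 lower (0.486%) of 20380, in 210 genes that include 46 of the 56.

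**Figure D1:**
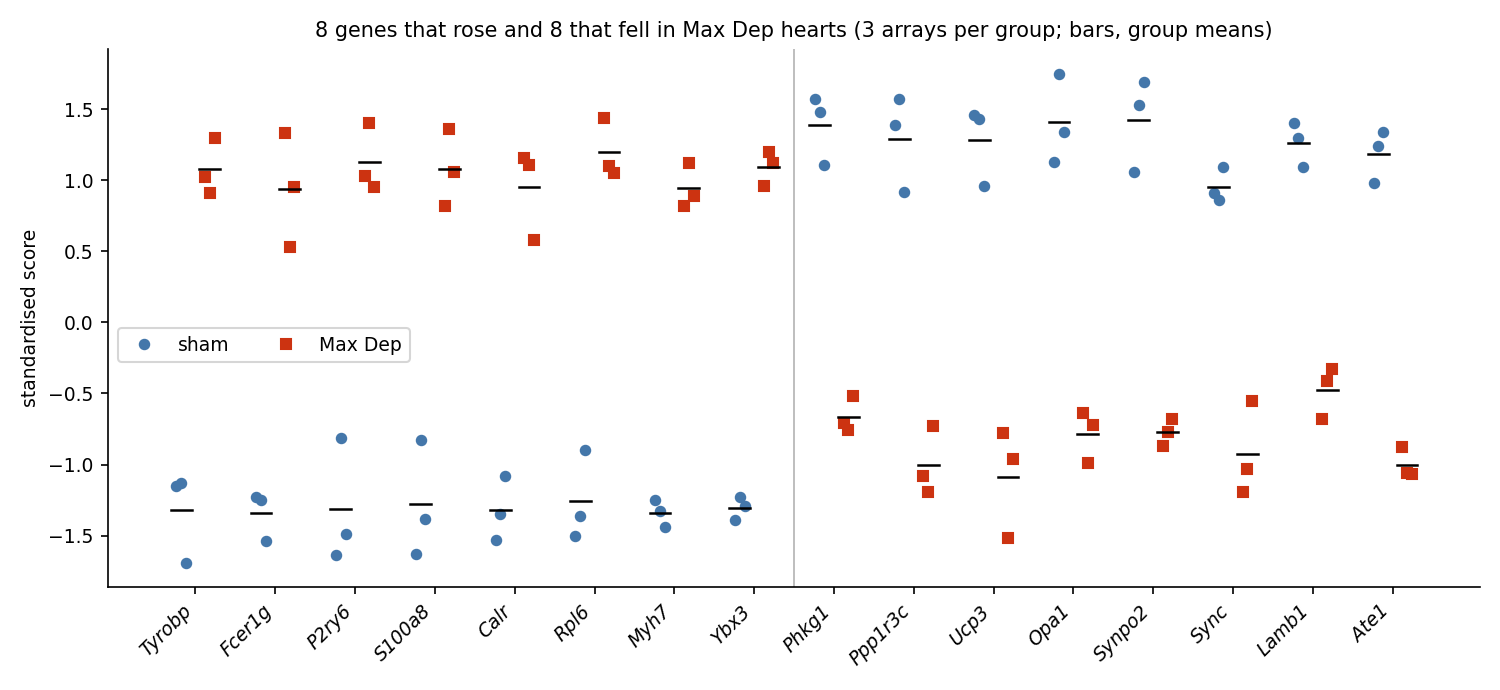
Standardised score (vertical axis) of 8 genes that rose and 8 that fell in Max Dep hearts, with each of the 3 sham and 3 Max Dep arrays as a point and the group mean as a bar. In every gene drawn the 6 points form 2 groups with no overlap, and Ybx3 shows the widest gap, 2.19 units.

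Tyrobp, the adaptor better known as DAP12 that carries activating signals into myeloid cells, scored -1.15, -1.13 and -1.69 in sham and 1.02, 0.91 and 1.30 in Max Dep hearts. The lowest Max Dep array lay 2.04 units above the highest sham array. The difference was 2.40 ± 0.21 (SE) with an adjusted p of 0.0333 (limma). Fcer1g, the common gamma chain through which Fc receptors signal, scored -1.23, -1.25 and -1.54 in sham and 1.33, 0.53 and 0.95 in Max Dep hearts, a rise of 2.27 ± 0.25 (adjusted p = 0.0403). P2ry6, a receptor for UDP released from damaged cells, scored -1.64, -0.81 and -1.49 against 1.03, 1.40 and 0.95 and rose by 2.44 ± 0.24 (adjusted p = 0.0336). Pirb, an inhibitory receptor that binds MHC class I, rose by 2.01 ± 0.25 (adjusted p = 0.0482), from -1.34, -1.40 and -1.14 to 0.76, 0.29 and 1.09. In each of these 4 receptor and adaptor genes all 3 Max Dep arrays lay above all 3 sham arrays.

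Of the 26 measured macrophage and monocyte markers, all 26 had a positive difference, with a median of 1.89 against -0.09 over all genes. Tyrobp, Fcer1g and P2ry6 passed the test, and in 17 of the 26 the groups did not overlap, beside 13.8% of all genes. Adgre1, the F4/80 antigen of mouse macrophages, passed with its probe set tested on its own (2.28, adjusted p = 0.0485). Trem2, a lipid receptor of macrophages, was the lowest member at 0.04 ± 0.63, and turned negative (-0.03) when the scaling per array was undone, which leaves 25 of 26 positive. The mean score over the list was -1.20, -0.48 and -0.98 in the sham arrays and 0.79, 0.41 and 1.04 in the Max Dep arrays. With the 5' minus 3' covariate its median was 1.60, and without sham replicate 1 it was 1.65.

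Neutrophil genes gave a similar picture with fewer calls. S100a8, a subunit of calprotectin, the antibacterial zinc- and calcium-binding protein of neutrophils, scored -1.63, -0.83 and -1.38 in sham and 0.82, 1.36 and 1.06 in Max Dep hearts and rose by 2.36 ± 0.28 (adjusted p = 0.0417). Its partner S100a9 differed by 2.31 ± 0.30 and just missed the threshold as a gene (adjusted p = 0.0527). Fpr2, a receptor for bacterial formyl peptides, differed by 2.17 ± 0.53 and Lcn2, which withholds iron from bacteria, by 1.97 ± 0.62, neither past the test (adjusted p = 0.134 and 0.205). In 10 of 18 measured neutrophil markers the groups did not overlap, all with Max Dep higher, beside 13.8% of all genes. The median of these markers was 1.61. Prtn3, a protease stored in granules during maturation in the marrow, was the lowest at -1.48 ± 0.79.

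Other white cells did not share this direction. All 13 measured genes of antigen presentation and dendritic cells had a negative difference, with a median of -0.97, and none passed. H2-Ab1, an MHC class II chain, scored 0.61, 1.96 and 1.18 in sham and -1.20, -0.53 and -0.20 in Max Dep hearts, a difference of -1.89 ± 0.51 (adjusted p = 0.157). In 4 of the 13 genes the groups did not overlap, beside 12.7% of all genes lower. These 4 were the MHC class II genes H2-Ab1, H2-Aa, H2-Eb1 and Cd74. The other members, the dendritic cell markers among them, overlapped. B and plasma cell markers had a median of -0.88, 12 of 13 negative, led by the B cell receptor chain Cd79a (-2.00 ± 0.46, adjusted p = 0.126). T and natural killer cell markers had a median of -0.53 that became 0.12 with the 5' minus 3' covariate. A lean of this kind was not confined to white cells. Lung and thymus genes had a median of -1.17 (10 of 11 negative), which was -0.17 with the covariate. Liver genes had a median of -0.66 (8 of 11 negative).

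**Figure D2:**
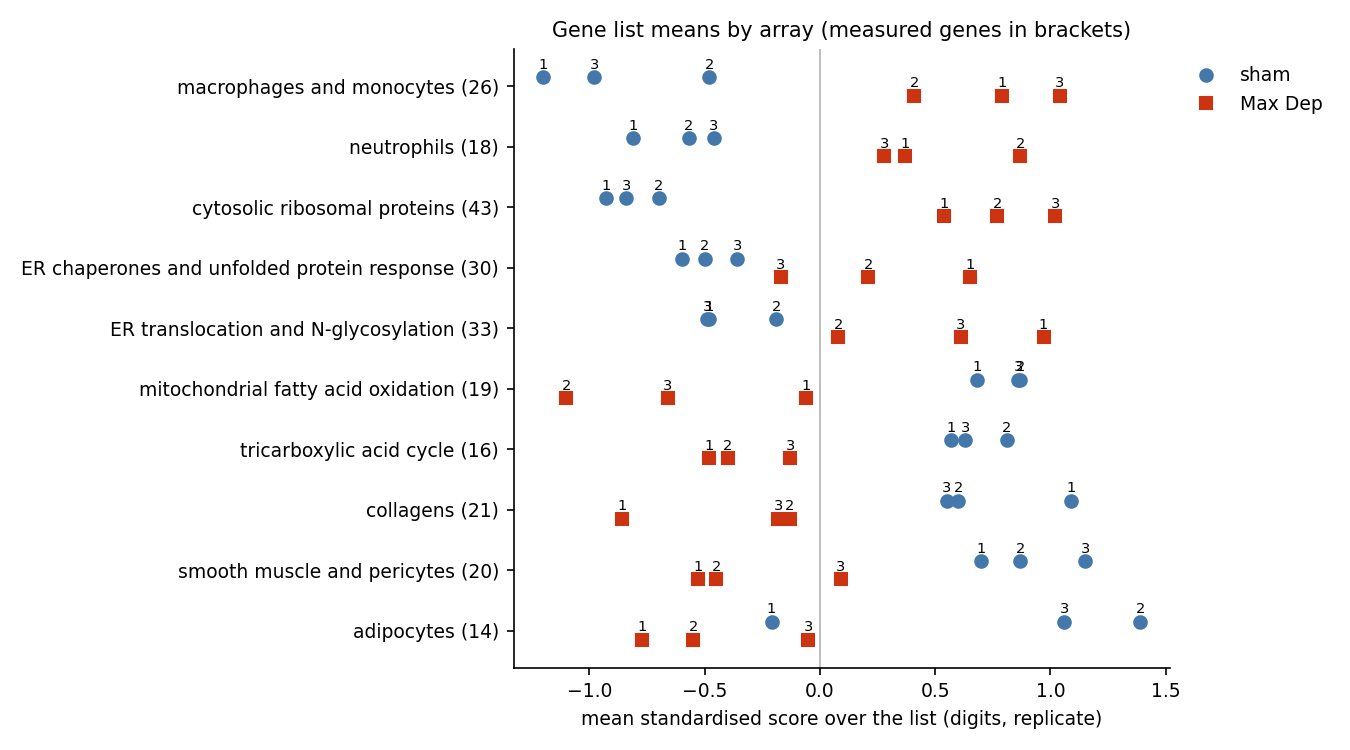
Mean standardised score of each of 10 gene lists (rows) in the 3 sham and 3 Max Dep arrays, each array a point. Macrophage, neutrophil, ribosomal and ER lists lie higher in Max Dep arrays, fatty acid oxidation, citric acid cycle, collagen and smooth muscle lists lie lower, and in adipocyte genes sham replicate 1 (-0.21) lies apart from the other sham arrays (1.39 and 1.06).

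Of the inflammatory signalling lists, only the interferon list held a called gene. Ifitm2, a membrane protein that blocks entry of viruses into the cytosol, was the only interferon-response gene of 28 past the test. It scored -0.80, -0.32 and -0.69 in sham and 1.58, 1.62 and 1.50 in Max Dep hearts, a rise of 2.17 ± 0.21 (adjusted p = 0.0336). The list's median was 0.34 and changed sign with the 5' minus 3' covariate (-0.35). No gene of the acute phase and STAT3 list passed; its members Socs3, a feedback inhibitor of cytokine receptors, and Lrg1, a secreted acute-phase glycoprotein, differed by 1.91 ± 0.54 and 2.01 ± 0.61 (adjusted p = 0.168 and 0.193). Of 35 cytokine and chemokine genes none passed and in 6 the groups did not overlap, all higher, beside 13.8% of all genes. The decoy receptor Il1r2 had the highest difference (2.05 ± 0.60, adjusted p = 0.177). Of 25 Toll-like receptor and NF-kB genes none passed. Nfkbia, the inhibitor that holds NF-kB in the cytosol, had the highest difference of that list (1.60 ± 0.45, adjusted p = 0.168), and Tlr4, the endotoxin receptor, the lowest (-1.08 ± 0.52, adjusted p = 0.359). Btrc, the F-box protein that marks phosphorylated NF-kB inhibitors and beta-catenin for destruction, fell by 1.63 on this scale, from 0.43, 0.60 and 0.77 in sham to -1.10, -0.99 and -1.02 in Max Dep hearts (SE 0.11, adjusted p = 0.0209). Nos2, the inducible nitric oxide synthase that the series' knockout removes, overlapped between the groups: 1.40, -0.30 and -0.91 in sham and -0.91, -0.31 and -0.98 in Max Dep hearts (-0.79 ± 0.75, adjusted p = 0.642).

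Among ER genes, the 4 calls fell on folding, its transcription factor and glycosylation. Calr encodes calreticulin, the calcium-binding chaperone that holds glycoproteins in the ER until they are folded. It scored -1.53, -1.35 and -1.08 in sham and 1.16, 1.11 and 0.58 in Max Dep hearts, and rose by 2.27 ± 0.28 (adjusted p = 0.0449). Its 3 probe sets differed by 2.26 to 2.28, so they agreed closely. Xbp1, the factor that the IRE1 sensor switches on by splicing its RNA, rose by 1.51 ± 0.17 (adjusted p = 0.0403), from -1.18, -0.98 and -1.19 to 0.42, 0.38 and 0.38, although its 4 probe sets differed by anything from 0.77 to 2.13. Expression scores do not show splicing. Krtcap2, a subunit of the oligosaccharyltransferase that attaches glycans to entering proteins, rose by 2.43 ± 0.22 (adjusted p = 0.0333), from -1.29, -0.85 and -1.62 to 1.47, 1.06 and 1.01. Mlec, malectin, which binds the glycans so attached, rose by 2.40 ± 0.26 (adjusted p = 0.0375), from -0.90, -1.24 and -1.74 to 0.99, 1.46 and 0.87.

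Of 30 measured ER chaperone and unfolded protein response genes, 24 had a positive difference and 2 passed. Over all genes 46.8% were positive and 0.29% passed as higher. The median of the list was 0.83, which was 1.25 with the 5' minus 3' covariate and between 0.53 and 1.17 with 1 array left out. The mean score over the list was -0.60, -0.50 and -0.36 in the sham arrays and 0.65, 0.21 and -0.17 in the Max Dep arrays. Max Dep replicate 3 thus lay close to sham. Dnajb11, a co-chaperone of the ER lumen, differed by 1.86 ± 0.37 (adjusted p = 0.102). Atf6, another sensor of the response, was lowest at -1.47 ± 0.73 (adjusted p = 0.371). Of 33 genes of protein entry into the ER and N-glycosylation, 27 were positive and 2 passed, beside the same shares of all genes. In 14 the groups did not overlap, with Max Dep higher, beside 13.8% of all genes. The median was 1.11, which fell to 0.57 with the covariate. Sec11c, a subunit of the signal peptidase, just missed the threshold as a gene (2.42 ± 0.33, adjusted p = 0.0607).

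The promoters of the ER chaperone genes are shown because their best-known shared control element, the ER stress element bound by the factors of the unfolded protein response, can be read in them. The element, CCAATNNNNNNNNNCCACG or on the other strand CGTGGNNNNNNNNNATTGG, was looked for on both strands in the 250 bases before each start site in RefSeq's GRCm38.p6 promoter table. It stood in 37 of 32851 promoter entries (0.113%). Counted by gene, it stood in 8 of the 25 listed chaperone genes that had an entry (32%). The first share counts entries and the second genes. The list was made of genes of this response, so its share says nothing about these hearts. All 8 had a positive difference, with a median of 1.53, and of the 17 others 12 did, with a median of 0.72. No test was made of this contrast. Among the 8, Calr alone passed the test; the other 7 were named for the element after their values were seen. Stretches are printed for the 5 with the highest differences, and the remaining carriers Dnajc3, Pdia6 and Syvn1 differed by 1.23 ± 0.54, 0.95 ± 0.55 and 0.33 ± 0.93 (adjusted p = 0.323, 0.439 and 0.897). The stretches lie at chr8:84847065-84847103 (minus strand) for Calr, chr2:34772015-34772053 (plus strand) for Hspa5, chr10:86705523-86705561 and chr10:86705628-86705666 (minus strand) for Hsp90b1, chr15:88819510-88819548 (plus strand) for Creld2 and chr11:50325790-50325828 (minus strand) for Canx. They are printed 5' to 3' along the gene's own strand with the fixed bases of the element in capitals.
Calr: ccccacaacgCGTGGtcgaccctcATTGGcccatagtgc
Hspa5: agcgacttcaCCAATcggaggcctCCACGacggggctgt
Hsp90b1, first stretch: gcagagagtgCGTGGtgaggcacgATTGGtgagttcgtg
Hsp90b1, second stretch: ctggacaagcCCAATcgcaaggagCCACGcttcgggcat
Creld2: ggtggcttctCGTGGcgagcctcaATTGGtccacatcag
Canx: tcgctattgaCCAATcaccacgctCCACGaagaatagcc
Calr, Creld2 and the first stretch of Hsp90b1 carry the element in the reverse direction. Hspa5, the ER form of the heat shock chaperone family better known as BiP, differed by 2.09 ± 0.51 (adjusted p = 0.134), and Hsp90b1, its Hsp90 counterpart GRP94, by 1.95 ± 0.61 (adjusted p = 0.206). Creld2, a disulfide isomerase-like protein, differed by 1.76 ± 0.70 and Canx, calnexin, the membrane-bound partner of calreticulin, by 1.30 ± 0.28 (adjusted p = 0.287 and 0.113). Max Dep replicate 1 scored highest of its group in Hspa5 (1.68, 0.76 and 0.23), Hsp90b1 (1.50, 0.76 and 0.18) and Creld2 (2.0, 0.05 and 0.11). In Canx it scored lowest (0.11, 0.42 and 1.17). The 3 probe sets of Canx did not agree: one passed on its own at 2.37, another stood at 1.71 and the third at -0.17.

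Cargo transport and lysosomes held further calls. Tmed10, a receptor that loads cargo into vesicles between the ER and the Golgi, rose by 2.37 ± 0.29 (adjusted p = 0.0449), from -1.04, -1.23 and -0.28 to 1.34, 1.83 and 1.39. Atp6v0b, a membrane subunit of the proton pump that acidifies lysosomes, rose by 2.19 ± 0.26 (adjusted p = 0.0417), and Hexa, a lysosomal enzyme that trims gangliosides, by 2.07 ± 0.26 (adjusted p = 0.0494). Man1a2, a Golgi enzyme that trims mannose from N-glycans, fell by 1.36 on this scale (SE 0.12, adjusted p = 0.0333), from 0.69, 0.61 and 0.80 to -0.81, -0.40 and -0.76. It was the smallest score difference among the called genes, which is no measure of the size of a change in RNA.

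Cytosolic ribosomal proteins had the highest median of the 40 pathway lists. Of 43 measured ribosomal protein genes, 42 had a positive difference, with a median of 1.91. In 32 every Max Dep array lay above every sham array, beside 13.8% of all genes. Rpl6 scored -1.50, -1.36 and -0.90 in sham and 1.44, 1.10 and 1.05 in Max Dep hearts and rose by 2.45 ± 0.20 (adjusted p = 0.0309). Rps28 rose by 2.36 ± 0.26 (adjusted p = 0.0403), and Rpl35, the mean of 6 probe sets of which one pointed the other way (-0.83), by 1.68 ± 0.18 (adjusted p = 0.0375). Tested one by one, 9 of the list's 92 probe sets passed, all higher. Rpl14 alone was negative (-0.78 ± 0.92). With the 5' minus 3' covariate the list's median was 1.49. Ribosomal protein genes have many near-identical processed copies in the genome, and short probes cannot always tell these apart.

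The list of translation factors had a median of 1.03 and no call by gene. Eif3i and Eif3f, subunits of the initiation factor that prepares the small ribosomal subunit, differed by 2.23 ± 0.39 and 2.34 ± 0.42 (adjusted p = 0.0831 and 0.0916). Eif2d, a factor outside that list that brings initiator tRNA to the ribosome without GTP, rose by 1.45 ± 0.18 (adjusted p = 0.0462). Of 29 cytosolic chaperones 24 were positive, with a median of 1.18. In 16 the groups did not overlap, with Max Dep higher, beside 13.8% of all genes. Pfdn6, a subunit of prefoldin, which hands new actin and tubulin to the folding chamber, rose by 2.42 ± 0.27 (adjusted p = 0.0403), from -0.86, -0.44 and -1.41 to 1.39, 1.64 and 1.53. Cct3, a subunit of that chamber, differed by 1.16 ± 0.19 (adjusted p = 0.0792). The stress-induced Hspa1a was lowest in the list at -1.26 ± 0.71 (adjusted p = 0.429). Of 40 proteasome genes none passed, 31 were positive, and the median was 0.73; Psme1, an activator subunit induced by interferon, was the lowest at -1.96 ± 0.43 (adjusted p = 0.115).

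**Figure D3:**
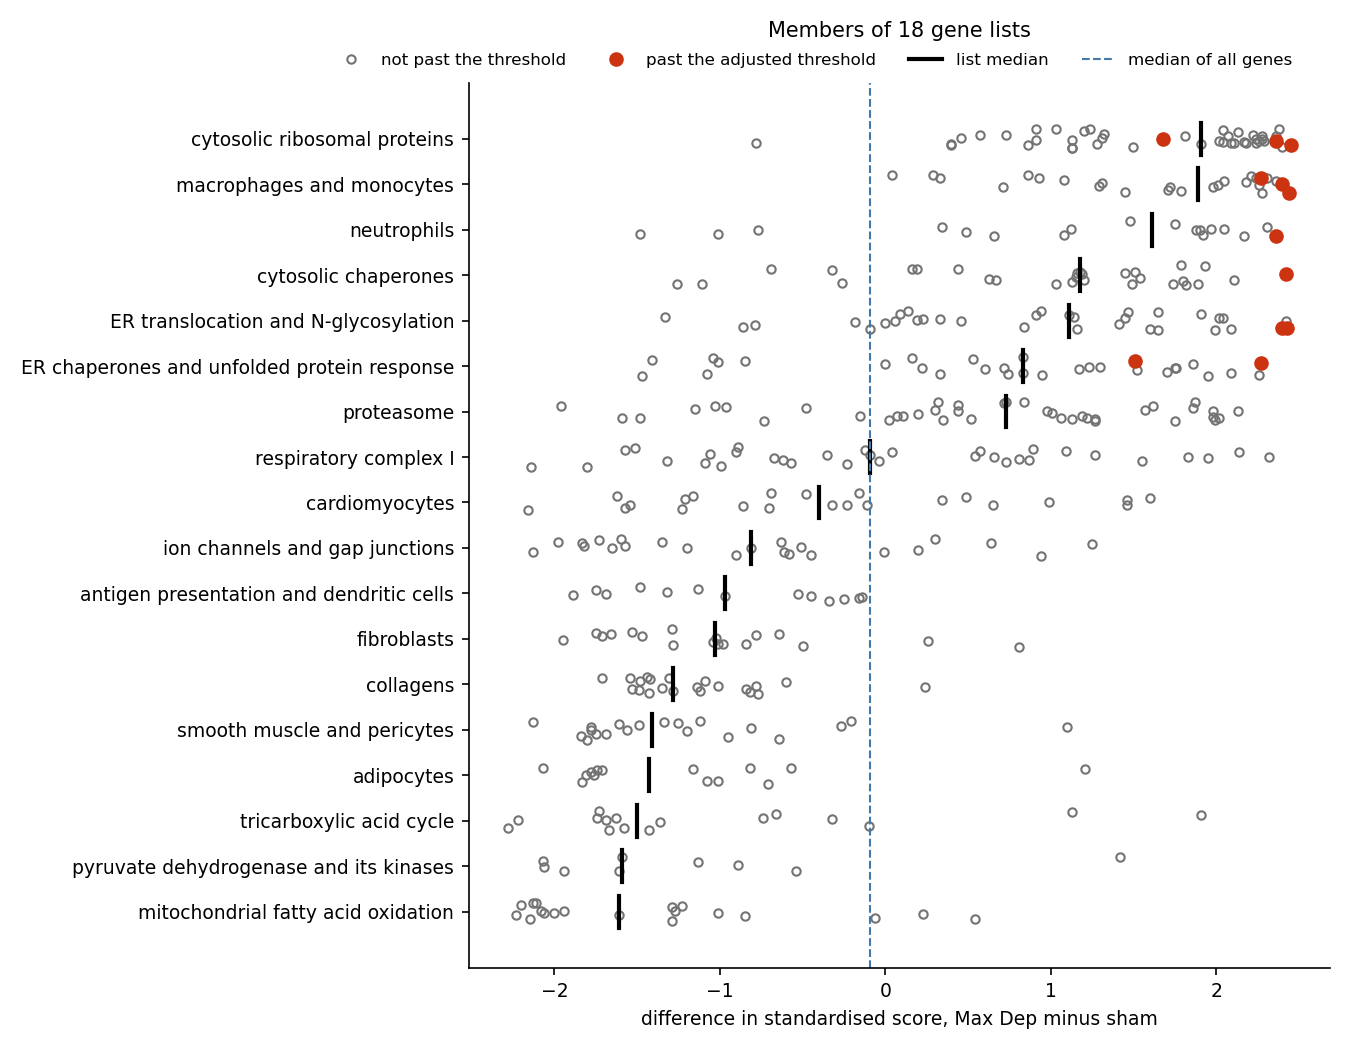
Difference in standardised score, Max Dep minus sham (horizontal axis), of every measured member of 18 gene lists (rows, ordered by median), each gene a point, filled where it passed the adjusted threshold, with the list median as a bar and the median of all genes (-0.09) as a dashed line. Ribosomal protein and macrophage genes lie furthest to the right. Genes of mitochondrial fatty acid oxidation and of pyruvate dehydrogenase and its kinases lie furthest to the left.

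Fuel metabolism held 4 of the falls, in glycogen and mitochondrial membrane genes. Phkg1, the muscle catalytic subunit of phosphorylase kinase, which switches on glycogen breakdown, fell by 2.05 on this scale (SE 0.13, adjusted p = 0.0209), from 1.57, 1.48 and 1.11 in sham to -0.71, -0.76 and -0.52 in Max Dep hearts. Ppp1r3c, which brings protein phosphatase 1 to glycogen and so favours its synthesis, fell by 2.29 (SE 0.23, adjusted p = 0.0336), from 1.39, 1.57 and 0.92 to -1.08, -1.19 and -0.73. One gene for breakdown and one for synthesis were thus both lower. The other 14 measured glycogen genes did not pass, and the list's median was -0.42.

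Ucp3, an uncoupling protein of muscle mitochondria tied to fatty acid use, scored 1.46, 1.43 and 0.96 in sham and -0.78, -1.52 and -0.96 in Max Dep hearts, the second-lowest difference of all 12393 genes (fell by 2.37, SE 0.25, adjusted p = 0.036). Opa1, which fuses the inner membranes of mitochondria, fell by 2.19 (SE 0.22, adjusted p = 0.0336), from 1.13, 1.75 and 1.34 to -0.64, -0.99 and -0.72. Both probe sets of each gene passed on their own.

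Of 19 measured genes of mitochondrial fatty acid oxidation, 17 had a negative difference, with a median of -1.61. In 14 every Max Dep array lay below every sham array, beside 12.7% of all genes. No gene of the list passed as a gene. Acadm, which opens the oxidation of medium-chain fatty acids, had the lowest value, -2.23 ± 0.48 (adjusted p = 0.113), with 0.89, 1.39 and 1.55 in sham and -0.49, -1.70 and -0.67 in Max Dep hearts. Etfdh and Echs1, which pass on electrons and hydrate the acyl chain, stood at -1.94 ± 0.32 and -2.13 ± 0.37 (adjusted p = 0.0794 and 0.0831). Hadh, the next enzyme of the spiral, passed with 1 of its 3 probe sets (-2.33, adjusted p = 0.0441). With the 5' minus 3' covariate the list's median was -1.94.

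Genes of pyruvate dehydrogenase with its kinases and genes of the citric acid cycle were lower to a like degree without a gene-level call. Of 9 genes of pyruvate dehydrogenase and its kinases 8 were negative, with a median of -1.59. The list pools subunits of the complex with kinases that switch it off, so it gives no direction for the entry of pyruvate. Pdha1, the catalytic subunit, stood at -2.07 ± 0.44 (adjusted p = 0.112) and one of its probe sets passed (-2.25, adjusted p = 0.033). Pdk4, the kinase that switches the complex off when fat is burned, stood at -1.94 ± 0.33 (adjusted p = 0.0823), with 1.64, 1.30 and 1.19 in sham and -0.22, -1.26 and -0.23 in Max Dep hearts, while Pdk2 stood at 1.42 ± 0.42 (adjusted p = 0.185). Of 16 citric acid cycle genes 14 were negative, with a median of -1.50. Sucla2, a subunit of the ligase that yields ATP in the cycle, and Cs, citrate synthase, stood at -2.28 ± 0.35 and -1.73 ± 0.28 (adjusted p = 0.0711 and 0.0792), and one of the 3 probe sets of Cs passed. Idh2 went the other way (1.91 ± 0.49, adjusted p = 0.145).

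The respiratory chain itself was mixed. Of 33 complex I genes 15 were positive and 18 negative, with a median of -0.09, the same as over all genes. Ndufa13 stood at 2.32 ± 0.34 (adjusted p = 0.0693) and Ndufs1, the subunit that carries iron-sulfur clusters, at -2.14 ± 0.46 (adjusted p = 0.113). ATP synthase genes divided evenly, 8 positive and 8 negative. Glycolysis genes had a median of -0.53, with Pkm, pyruvate kinase of muscle type, at -1.93 ± 0.38 and Ldhb, the heart form of lactate dehydrogenase, at 1.79 ± 0.44 (adjusted p = 0.101 and 0.134). The regulators Ppara and Ppargc1a, which drive oxidative genes, overlapped between the groups (0.31 ± 0.83 and -0.90 ± 0.57, adjusted p = 0.89 and 0.483). Sod2, the superoxide dismutase of mitochondria, stood at -1.68 ± 0.25 (adjusted p = 0.0695), and 1 of its 3 probe sets passed (-1.88, adjusted p = 0.0446).

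Of the contractile genes, Myh7, the slow beta heavy chain of myosin that adult mouse ventricle expresses little, rose. It scored -1.25, -1.33 and -1.44 in sham and 0.82, 1.12 and 0.89 in Max Dep hearts, a rise of 2.28 ± 0.21 (adjusted p = 0.0333) with a gap of 2.07 between the groups. The alpha chain Myh6, the main adult form, overlapped (-0.23 ± 0.53, adjusted p = 0.871). So did the natriuretic peptide genes Nppa and Nppb, which are usually induced with Myh7 in strained hearts (0.34 ± 0.99 and -0.84 ± 0.85, adjusted p = 0.899 and 0.666). In both of these, Max Dep replicate 1 was the lowest of all 6 arrays (-1.75 and -1.74). Meis1, a homeobox factor of cardiomyocyte maturation, missed the threshold as a gene (1.91 ± 0.25, adjusted p = 0.0549). Gata4, a cardiac transcription factor, was the lowest of this group at -2.17 ± 0.51 (adjusted p = 0.129).

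Synpo2, an actin-bundling protein of the Z disc, fell by 2.20 (SE 0.21, adjusted p = 0.0333), from 1.06, 1.53 and 1.69 to -0.87, -0.77 and -0.68. Sync, syncoilin, an intermediate filament protein that ties desmin to the muscle membrane, fell by 1.88 (SE 0.18, adjusted p = 0.0333), from 0.91, 0.86 and 1.09 to -1.19, -1.03 and -0.55. Of 25 thin-filament and Z-disc genes 9 did not overlap and were lower, beside 12.7% of all genes, and 4 were higher, beside 13.8%. Nebl, a nebulin-like Z-disc protein, stood at -1.93 ± 0.32 (adjusted p = 0.0794). The troponins went both ways, Tnnc1 at -1.62 ± 0.38 and Tnnt2 at 1.60 ± 0.38 (adjusted p = 0.127 and 0.131). The 22 cardiomyocyte markers as a list had a median of -0.40, with Ckm, creatine kinase of muscle, the lowest (-2.16 ± 0.51, adjusted p = 0.13).

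Calcium handling and excitation genes gave no call other than Calr. Ryr2, the calcium release channel, scored 1.37, 0.98 and 1.02 in sham and 0.30, -0.29 and -0.34 in Max Dep hearts (-1.23 ± 0.35, adjusted p = 0.175), and 1 of its 2 probe sets passed (-1.97). Jph2, which holds the sarcoplasmic reticulum against the cell membrane, stood at -1.97 ± 0.47 (adjusted p = 0.131). Atp2a2, the calcium pump, and its brake Pln overlapped (-0.47 ± 0.40 and -0.69 ± 0.38, adjusted p = 0.598 and 0.419). Of 23 ion channel and gap junction genes 18 were negative. In 7 the groups did not overlap, all lower, beside 12.7% of all genes. Abcc9, the regulatory subunit of the ATP-sensitive potassium channel, stood at -2.13 ± 0.35, and the calcium channel subunit Cacna2d1 at -1.82 ± 0.38 (adjusted p = 0.0792 and 0.11).

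Of the matrix genes listed, Lamb1 alone passed the test. Lamb1, the laminin chain of basement membranes, fell by 1.74 (SE 0.17, adjusted p = 0.0333), from 1.40, 1.30 and 1.09 to -0.68, -0.41 and -0.33. Of 48 matrix genes 35 were negative, with a median of -1.23. Of these 48, 24 did not overlap and were lower, beside 12.7% of all genes, and 3 were higher, beside 13.8%. Nid2, which links laminin to collagen IV, stood lowest at -2.18 ± 0.38 (adjusted p = 0.0858), and the neutrophil-rich gelatinase Mmp9 highest at 1.92 ± 0.53 (adjusted p = 0.164). Of 21 collagen genes 20 were negative, with a median of -1.28. In 14 the groups did not overlap, all lower, beside 12.7% of all genes. Col8a1 scored 1.39, 0.81 and 1.35 against -0.56, -0.24 and -0.78 (-1.71 ± 0.40, adjusted p = 0.13). Fibroblast markers had a median of -1.03 (16 of 18 negative), with Fbln2 at -1.66 ± 0.32 (adjusted p = 0.0965), and smooth muscle and pericyte markers a median of -1.41 (19 of 20 negative), with the contractile protein Smtn at -1.78 ± 0.38 (adjusted p = 0.112). Endothelial markers had a median of 0.16 (17 of 27 positive). Tek, the receptor of angiopoietins, stood at 2.30 ± 0.49 and Epas1, the hypoxia-inducible factor of endothelium, at -2.13 ± 0.29 (adjusted p = 0.113 and 0.0607). Adipocyte markers had a median of -1.43, which was -1.91 without sham replicate 1, and Lgals12, a galectin of fat cells, fell by 1.68 (SE 0.19, adjusted p = 0.0403).

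Among the falls outside the lists was Twsg1. The protein, which binds bone morphogenetic proteins, fell by 1.73 (SE 0.17, adjusted p = 0.0336) and scored 1.04, 0.95 and 1.35 in sham against -0.81, -0.68 and -0.34. Kremen1, the receptor through which Dickkopf proteins block Wnt signals, fell by 2.24 (SE 0.24, adjusted p = 0.0375), and Sost, sclerostin, another Wnt inhibitor, by 1.51 (SE 0.19, adjusted p = 0.0473). Ccn3, a matricellular protein, fell by 2.12 (SE 0.26, adjusted p = 0.0449), from 0.98, 1.13 and 1.96 to -0.86, -0.70 and -0.73. Tmem100, an endothelial protein downstream of the ALK1 receptor, fell by 1.51 (SE 0.19, adjusted p = 0.0449), from 1.39, 1.59 and 1.04 to -0.26, -0.38 and 0.11. Hhatl, a muscle protein of the Hedgehog acyltransferase family, fell by 2.21 (SE 0.26, adjusted p = 0.0417).

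The smallest p of all belonged to Ate1, the enzyme that adds arginine to proteins and so marks them for degradation by the N-degron pathway. It scored 0.98, 1.24 and 1.34 in sham and -0.88, -1.06 and -1.07 in Max Dep hearts, a fall of 2.19 (SE 0.14, adjusted p = 0.0209). Polb, the polymerase of base excision repair, rose by 2.10 ± 0.14 (adjusted p = 0.0209), from -1.28, -1.34 and -1.04 to 0.99, 0.98 and 0.67. Paf1, which travels with RNA polymerase II during elongation, showed the highest score difference of all genes, 2.49 ± 0.23 (adjusted p = 0.0333), and Gtf2h4, a subunit of the repair and initiation factor TFIIH, rose by 1.42 ± 0.18 (adjusted p = 0.0492). Further rises were Bptf, a chromatin remodelling subunit (1.77 ± 0.21), Tial1, an RNA-binding protein of stress granules (2.00 ± 0.24), Ybx3, a cold-shock domain protein (2.39 ± 0.27), and Arpc5l, a subunit of the Arp2/3 complex that branches actin (2.02 ± 0.21). Carns1, which makes the muscle dipeptide carnosine, rose by 1.92 ± 0.23 (adjusted p = 0.0449). Mrps24, of the small mitochondrial ribosome, rose by 2.20 ± 0.18 (adjusted p = 0.0309), while its list of 58 mitochondrial ribosomal genes divided evenly, 29 positive and 29 negative. The lowest difference of all 12393 genes was that of Pafah1b3, a subunit of a platelet-activating factor hydrolase (fell by 2.38, SE 0.29, adjusted p = 0.0449).

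**Figure D4:**
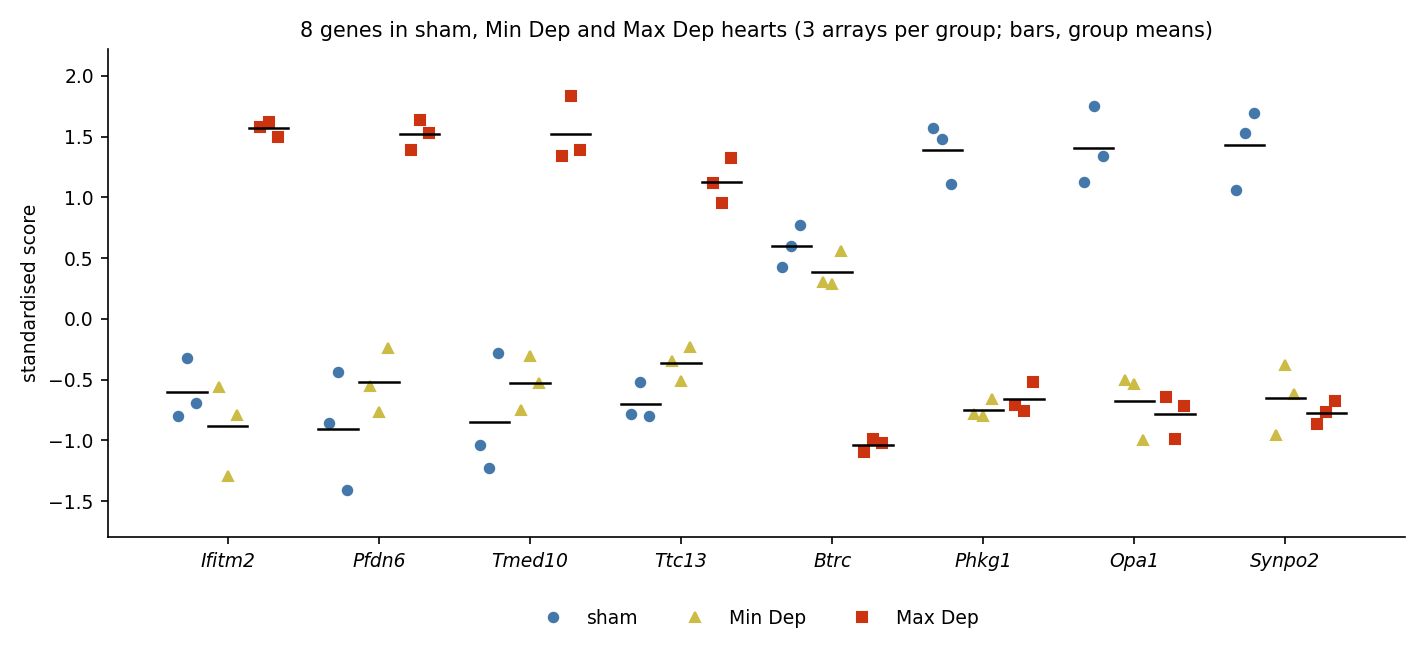
Standardised score (vertical axis) of 8 genes in the 3 sham, 3 Min Dep and 3 Max Dep arrays, each array a point and each group mean a bar. In Ifitm2, Pfdn6, Tmed10, Ttc13 and Btrc the Min Dep points lie near sham, and in Phkg1, Opa1 and Synpo2 near Max Dep. The 8 genes do not stand for all calls. Min Dep arrays did not overlap sham arrays in 33 of the 36 rises and 19 of the 20 falls.

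The direct contrast of Max Dep with Min Dep hearts passed no gene (limma, lowest adjusted p = 0.0852); 1216 of 12393 genes had an unadjusted p under 0.05. Hence no difference above is shown to be particular to Max Dep hearts. In 33 of the 36 rises and 19 of the 20 falls, the Min Dep arrays too did not overlap the sham arrays. The Min Dep difference from sham had the same sign as the Max Dep difference in 35 of the rises and all 20 falls. The lowest p of that contrast among the genes above was that of Btrc, which scored 0.30, 0.29 and 0.56 in Min Dep hearts, 1.42 units above Max Dep (SE 0.11, adjusted p = 0.0852). Ifitm2 scored -0.56, -1.29 and -0.79 in Min Dep hearts, below each Max Dep array, with a Max Dep minus Min Dep difference of 2.44 ± 0.21 (adjusted p = 0.0852). Ttc13, which scored -0.78, -0.52 and -0.80 in sham and 1.12, 0.95 and 1.32 in Max Dep hearts, scored -0.35, -0.51 and -0.23 in Min Dep hearts (1.49 ± 0.13, adjusted p = 0.0852). Pfdn6 and Tmed10 were 2.04 ± 0.27 and 2.05 ± 0.29 above Min Dep (adjusted p = 0.185 for both). In contrast Phkg1 scored -0.78, -0.80 and -0.66 in Min Dep hearts, within 0.09 ± 0.13 of Max Dep, and Opa1 and Synpo2 stood at -0.11 ± 0.22 and -0.12 ± 0.21. Tmem100 and Fign, a microtubule-severing enzyme, were further from sham in Min Dep than in Max Dep hearts: Max Dep minus Min Dep was 0.98 ± 0.19 for Tmem100 and -0.57 ± 0.17 for Fign (adjusted p = 0.313 and 0.437).

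By list, Max Dep minus Min Dep had a median of -0.08 over all genes. It was 0.93 over mitochondrial ribosomal genes, with 54 of 58 positive, and 1.24 over glucocorticoid-responsive genes, with 20 of 22 positive. Against sham, the Min Dep median was -0.92 and the Max Dep median 0.04 in the former list, and -0.93 and 0.27 in the latter. Nfkbia, a member of the latter list, stood 2.29 above Min Dep. Chaperones of the cytosol had a median of 0.83 (27 of 29 positive), macrophage markers 0.58 (22 of 26) and ribosomal proteins 0.68 (36 of 43). For ER chaperones it was 0.00 (15 of 30), for collagens 0.27 (13 of 21) and for fatty acid oxidation -0.54 (4 of 19). B and plasma cell markers were at -1.30, with 2 of 13 positive. The list of antigen presentation and dendritic cells was at -0.70, with 3 of 13 positive. Its MHC class II chains H2-Ab1, H2-Aa and H2-Eb1 lay close to Min Dep, at -0.06 ± 0.51, -0.0 ± 0.62 and 0.17 ± 0.61. The chemokine receptor Ccr7 was the lowest of that list at -1.77 ± 0.55.

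**Figure D5:**
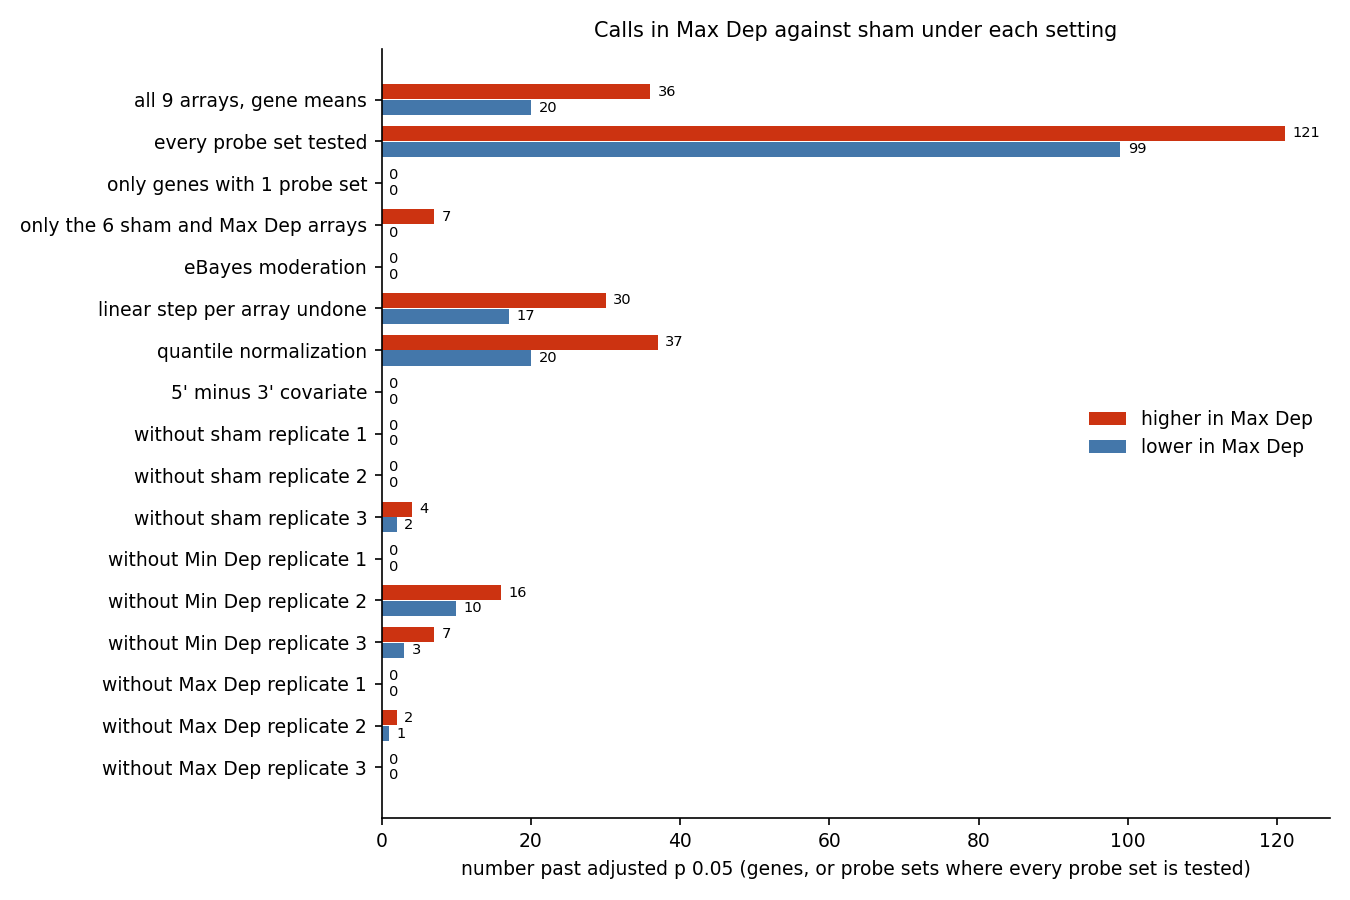
Number of genes past the adjusted threshold in Max Dep against sham (horizontal axis), higher and lower, under each way of testing (rows; where every probe set is tested, probe sets are counted). The 36 higher and 20 lower genes of the fit on all 9 arrays are close to the counts after undoing the scaling per array (30 and 17) or quantile normalization (37 and 20), and the count is 0 under eBayes, with the 5' minus 3' covariate, with single-probe-set genes alone and with any of 5 of the arrays left out.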

How the data were processed

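Total RNA of whole hearts was labelled with biotin and hybridised to short-oligonucleotide arrays, 1 array per heart. The labels carry a code per heart and name no batch. The deposited wild-type table holds a standardised score for 22690 probe sets and 9 arrays. The authors made it with software not given in the sources used here; undoing a linear step per array leaves every probe set at mean 0 and SD 1.0. No intensities were used here, so signal over background is unknown. After removal of 64 control probe sets, 20380 had 1 annotated gene, 691 several and 1555 none, and the first were averaged per gene. Differences between groups came from limma 3.58.1 (function lmFit, run in R 4.3.3) with all 9 wild-type arrays, unmoderated statistics on 6 residual degrees of freedom and Benjamini-Hochberg adjustment over 12393 genes. The procedure was tested on simulated independent normal values with planted shifts. The simulation held no correlation between genes and no Min Dep effect, so it does not bear on how reliable the calls are. An exact permutation of 3 against 3 cannot go below 0.1. P-values measure the spread between arrays. Lists (40 pathways, 16 cell types) are described by counts and medians without a test. The comparison, the lists and the unmoderated test were chosen with earlier results of these data known. Named were the 20 rises and 20 falls of smallest p, list genes past the threshold, the 3 list members of smallest p, the extremes of a list, and preset cardiac and immune genes; other names are marked where they occur.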

Additional observations from a re-analysis of the deposited data

How the results depend on the processing

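The count of 56 genes called for Max Dep against sham was 47 with the linear step per array undone and 57 after quantile normalization. It was 220 with every probe set tested on its own, 7 (all higher, 0 lower) with only the 6 sham and Max Dep arrays, and 0 with eBayes moderation (2071 genes had an unadjusted p under 0.05 without it), with the 5' minus 3' covariate or with only genes of 1 probe set, of which 7437 are tested. With 1 array left out the count ran from 0 to 26. The count of genes without overlap, 3277, was 6076 among probe sets and 1856 among genes of 1 probe set, and between 3277 and 4572 with 1 array left out, where separation is easier to reach. Max Dep against Min Dep passed 0 genes, 2 with the linear step undone, and 0 to 1 with 1 array left out. Of 1856 values of the 128 named genes under alternatives, 1257 kept their direction and their side of the threshold, 584 lost a call, 6 gained one and 9 changed direction. The last were Ppara with the covariate (-0.44), Trem2 with the step undone (-0.03), and, with 1 array left out, Myh6 (from -0.54 to 0.17), Nppa (from -0.70 to 1.25), Ppara (from -0.38 to 0.89), Trem2 (from -0.36 to 0.57) and Uty (from -0.06 to 1.54). Single genes were given no value where every probe set was tested. The 19 lists with a median of at least 0.8 in size kept its sign under every alternative run, and 18 others changed sign in at least one. The cause of these shifts was not tested. No paired analysis was possible because the labels give the arrays no shared replicate numbers.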

Other observations

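No gene of the iron, apoptosis, autophagy or clock lists passed the adjusted test (limma, Benjamini-Hochberg). Hamp, which encodes the iron hormone hepcidin, scored -2.20, -0.58 and -0.66 in sham and 1.68, 0.72 and 0.55 in Max Dep hearts (2.13 ± 0.52, adjusted p = 0.134), and Mt1, a metallothionein that binds zinc, stood at 1.79 ± 0.48 (adjusted p = 0.152). Fech, the last enzyme of heme synthesis, stood at -1.25 ± 0.24 (adjusted p = 0.0948), with the 3 Max Dep arrays between -0.69 and -0.65. Of 20 measured genes of iron, heme and metallothionein 7 did not overlap and were higher, beside 13.8% of all genes, and 3 were lower, beside 12.7%.

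Of 30 apoptosis genes 7 did not overlap and were higher and 2 were lower, beside 26.4% of all genes in either direction, and the median was 0.12. Endog and Diablo, proteins that leave mitochondria during cell death, stood at 2.31 ± 0.39 and 1.98 ± 0.42 (adjusted p = 0.0798 and 0.111), and Xiap, which blocks caspases, at -1.19 ± 0.29 (adjusted p = 0.134). Members of the same kinds also went the other way. Aifm1, which leaves mitochondria too, stood at -1.03 ± 0.37, and Birc2, of the inhibitor family of Xiap, at 1.91 ± 0.50 (adjusted p = 0.249 and 0.151). Aifm1 and Birc2 were named after their values were seen. Ulk1, the kinase that starts autophagy, stood at -2.17 ± 0.43 as a gene (adjusted p = 0.103), and 1 of its 2 probe sets passed (-2.38). Nr1d1, a repressor of the clock, scored 0.94, 1.54 and 1.68 in sham and -0.32, -0.56 and -0.62 in Max Dep hearts (-1.88 ± 0.37, adjusted p = 0.1), and the labels give no hour of day for tissue collection.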
